A study of Mus musculus with 6 samples.

Results

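Checkpoint receptors of T cells were followed here through the first hours of activation in CD8+ T cells with and without Nrdp1. The set held 9 genes: the inhibitory receptor genes Pdcd1 (PD-1), Ctla4, Lag3, Havcr2 (TIM-3), Tigit, Cd160, Btla and Cd5, and Cd274, which encodes the PD-1 ligand PD-L1. Members were found by an exact match of the gene symbol in the platform annotation, which listed 11 probe sets for 8 of the 9 genes among 45037 probe sets in all. Tigit had no listed probe set and is named only. Cd160 had 4 probe sets and the other 7 listed genes 1 each, and the brightest by its mean over the 6 arrays stood for each gene. Of the 8 listed genes, 7 were among the 10838 of 18193 genes that were bright enough to be tested, meaning a signal at or above the array's own median on 2 or more arrays. Lag3 was not.

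The arrays were Affymetrix mouse 430 2.0 arrays, each read as MAS5 signal, a brightness on a linear scale. The RNA came from splenic CD8+ T cells, labelled naive, of mice labelled C57/BL6. The 3 Nrdp1-/- arrays, from mice lacking the E3 ubiquitin ligase Nrdp1, held untreated cells and cells stimulated for 4 h and 8 h with anti-CD3 (immobilized, 5 µg/ml) plus anti-CD28 (soluble, 1 µg/ml). The 3 wild-type (Nrdp1+/+) arrays covered the same 3 conditions. The sample-level treatment labels name only anti-CD28, while the treatment protocol names both antibodies. The labels give no age, no number of mice and no description of the deleted allele or its tissue range, and they do not say whether arrays share an animal. There was 1 array per genotype and time, so differences between single arrays have no replicate check, and every p-value rests on the scatter of single arrays around an additive fit, which may be technical.

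T cell activation switches on a set of brakes together with the effector programme. PD-1 and BTLA carry tyrosine motifs in their cytoplasmic tails that recruit the phosphatases SHP-1 and SHP-2, CTLA-4 takes the ligands CD80 and CD86 away from CD28, and LAG-3, TIM-3 and TIGIT bind MHC class II, galectin-9 and CD155, among other ligands. BTLA and CD160 share a ligand, HVEM, encoded by Tnfrsf14. CD5 restrains T cell receptor signalling from the naive stage on, and PD-L1 is best known for its induction by interferon gamma on tumour, myeloid and lymphoid cells.

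The samples were checked against markers first. All 7 measured T cell markers were above the array median on all 6 arrays, while of 6 CD4 and regulatory T cell markers Cd4, Foxp3, Ccr4 and Cd40lg were below it on all 6. Of the other 2, Zbtb7b was below it on 2 arrays, and Ikzf2 was above it on all 6 and rose at 4 h (0.72 ± 0.11, adjusted p = 0.00119). The RNA extraction label names whole colon. Of 12 colon epithelium and smooth muscle markers, 6 were below the array median on all 6 arrays. The summed signal of the 12 was 597 to 869 on Nrdp1-/- arrays and 703 to 942 on wild-type arrays. Epcam was above the median on all 6 arrays and lower in Nrdp1-/- cells (-1.06 ± 0.15, limma, adjusted p = 0.00141). Car1 was above it on the Nrdp1-/- arrays only, so it was tested because it was bright there. Its difference (2.27 ± 0.36, limma, adjusted p = 0.00304) is taken against wild-type signals below the median, so its size is uncertain. Acta2, Des, Cdh1 and Krt8 were above it on some arrays. Rnf41, which encodes Nrdp1, showed a fitted log2 difference, Nrdp1-/- minus wild type, of -0.36 ± 0.12 on its brightest probe set (SE, limma, adjusted p = 0.128). The mean differences on its other 3 probe sets were -1.25, -0.002 and 0.25. Where these probe sets lie relative to the deleted part is not given in the sources used here, so they do not settle the labels. In bulk RNA, fewer cells of a type and less RNA per cell cannot be told apart, which holds for every value below. Fitted differences are on the log2(signal + 4.45) scale with the moderated SE of limma. That SE draws more on other genes of like brightness (8.99 prior degrees of freedom) than on the gene's own arrays (2 residual). It is therefore not the observed spread of a gene over the 6 arrays. A gene is said to rise, fall or change at an adjusted p under 0.05 (limma).

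PD-L1 had the largest rise of the tested members. Cd274 signal was 562 untreated, 7709 at 4 h and 5071 at 8 h in Nrdp1-/- cells, against 487, 3427 and 4885 in wild-type cells. All 4 stimulated arrays lay above both untreated arrays, without overlap. The rise was 3.29 ± 0.21 at 4 h (adjusted p = 1.99e-06) and 3.24 ± 0.21 at 8 h (adjusted p = 2.37e-06), ranking 38 and 37 by p among the genes tested. The genotypes took unlike courses between these times. At 4 h the Nrdp1-/- array was 2.25-fold above wild type, a log2 difference of 1.17, while the difference was 0.21 in untreated cells and 0.05 at 8 h. Within Nrdp1-/- cells the 8 h signal was lower than the 4 h signal by 0.60 on the log2 scale (-0.60), and within wild-type cells it was higher by 0.51.

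Pdcd1, the receptor for PD-L1, rose from a dim start. Its signal was 64.2 untreated, 148 at 4 h and 159 at 8 h in Nrdp1-/- cells, against 60.9, 173 and 134 in wild-type cells. Both untreated arrays were below the array median, so the rise is given against that median, as at least 2.37-fold at 4 h and at least 2.16-fold at 8 h. The fitted rise was 1.30 ± 0.32 at 4 h (adjusted p = 0.0223) and 1.17 ± 0.32 at 8 h (adjusted p = 0.0285). Pdcd1 was above the median on the stimulated arrays only, so it was tested because it was bright there. At each time 5 of 14 alternative settings ended the call, with adjusted p up to 0.161 at 4 h and 0.22 at 8 h. Leaving out the brightness filter was among them at both times. The order of the genotypes changed from time to time, at 0.07, -0.21 and 0.24 (untreated, 4 h, 8 h).

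Promoter sequences of the members that rose most, Cd274, Pdcd1 and Cd160, are shown with the matches of 6 short motifs. These are RefSeq sequences of build GRCm38.p6, from 250 bases before to 50 bases after an annotated start, on the gene's strand. The motifs were the interferon response element core (GAAA, any 2 bases, GAAA), TTCNNNGAA (the gamma-activated site), TGANTCA (AP-1), GGAAA (the NFAT core), an NF-kB core (GGG, any 5 bases, CC) and AAAGGTCA (the Nr4a monomer site), each searched on both strands. Capitals mark the matches, and matches may overlap.
Cd274, chr19:29367188-29367487, + strand: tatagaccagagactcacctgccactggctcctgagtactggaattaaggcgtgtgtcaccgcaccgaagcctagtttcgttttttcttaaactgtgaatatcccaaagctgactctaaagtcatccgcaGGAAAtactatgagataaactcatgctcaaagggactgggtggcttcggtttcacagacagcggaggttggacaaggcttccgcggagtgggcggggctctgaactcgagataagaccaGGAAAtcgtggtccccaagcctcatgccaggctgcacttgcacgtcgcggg
Pdcd1, chr1:94052504-94052803, - strand: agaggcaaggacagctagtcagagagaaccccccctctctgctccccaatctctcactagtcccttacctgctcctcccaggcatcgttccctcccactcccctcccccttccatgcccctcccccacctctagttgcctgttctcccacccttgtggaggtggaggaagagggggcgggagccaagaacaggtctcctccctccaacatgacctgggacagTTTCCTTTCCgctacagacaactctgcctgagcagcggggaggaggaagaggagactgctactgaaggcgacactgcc
Cd160, chr3:96814472-96814771, - strand: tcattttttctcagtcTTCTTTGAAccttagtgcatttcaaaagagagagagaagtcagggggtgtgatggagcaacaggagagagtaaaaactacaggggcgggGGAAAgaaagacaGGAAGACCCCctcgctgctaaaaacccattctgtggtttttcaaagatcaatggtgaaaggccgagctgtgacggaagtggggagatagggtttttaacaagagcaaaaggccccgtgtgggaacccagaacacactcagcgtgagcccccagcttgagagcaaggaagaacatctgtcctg
Cd160, second start, chr3:96829302-96829601, - strand: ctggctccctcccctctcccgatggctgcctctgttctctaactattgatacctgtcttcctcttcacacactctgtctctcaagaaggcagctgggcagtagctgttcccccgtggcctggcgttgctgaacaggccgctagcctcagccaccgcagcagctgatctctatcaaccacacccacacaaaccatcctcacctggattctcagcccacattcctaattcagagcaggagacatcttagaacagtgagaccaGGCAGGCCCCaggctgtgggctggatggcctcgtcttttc
The Cd274 and Pdcd1 windows held 2 GGAAA matches each and none of the other 5 motifs. The Cd160 window at its first listed start held 1 match each of TTCNNNGAA, GGAAA and the NF-kB core, and the window at its second start 1 match of the NF-kB core. The tables held 9 windows for 8 of the 9 genes, 2 for Cd160 and none for Lag3. Of these windows 6 held GGAAA, against 61.3% of 32851 mouse promoter windows. Of those windows 50.8% held the NF-kB core, found in 3 of the 9, and 8.3% held TTCNNNGAA, found in 1. TGANTCA stood in the Havcr2 window alone, against 7.81% of all windows, and the Btla window held no match. No member window held the interferon response element core or AAAGGTCA, present in 3.44% and 1.51% of all windows. These matches describe letters in a short window and say nothing about binding.

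Cd160 and Btla, the receptors for HVEM, both rose, Cd160 by more. Cd160 signal was 117 untreated, 665 at 4 h and 480 at 8 h in Nrdp1-/- cells, against 97.1, 392 and 282 in wild-type cells. The untreated arrays lay below all 4 stimulated arrays, and the Nrdp1-/- array was the brighter at each time. The rise was 2.21 ± 0.20 at 4 h (adjusted p = 4.43e-05) and 1.74 ± 0.20 at 8 h (adjusted p = 0.000217), and it held in all 15 alternatives at both times. Btla signal was 2174, 3124 and 3067 in Nrdp1-/- cells, against 2385, 3253 and 2967 in wild-type cells, in the same order of times. Here too the stimulated arrays lay above the untreated ones, but within a narrow span. The rise of Btla was 0.48 ± 0.10 at 4 h (adjusted p = 0.0107) and 0.40 ± 0.10 at 8 h (adjusted p = 0.0199). It was lost in 5 of 15 alternatives at 8 h, among them the omission of either untreated array.

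The other Cd160 probe sets were dimmer, with higher signals at 4 h than untreated in both genotypes. The second brightest gave 79.5, 528 and 274 in Nrdp1-/- cells and 43.5, 283 and 308 in wild-type cells. Fitted on its own it rose by 2.63 ± 0.28 at 4 h (adjusted p = 0.00049) and by 2.22 ± 0.28 at 8 h (adjusted p = 0.00115). It did not repeat the genotype order of the main probe set at 8 h, where the Nrdp1-/- array was lower by 0.17 (-0.17). The third differed by 1.05 ± 0.49 at 4 h, without passing the threshold (adjusted p = 0.244), and the dimmest was below the array median on all 6 arrays.

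**Figure D1:**
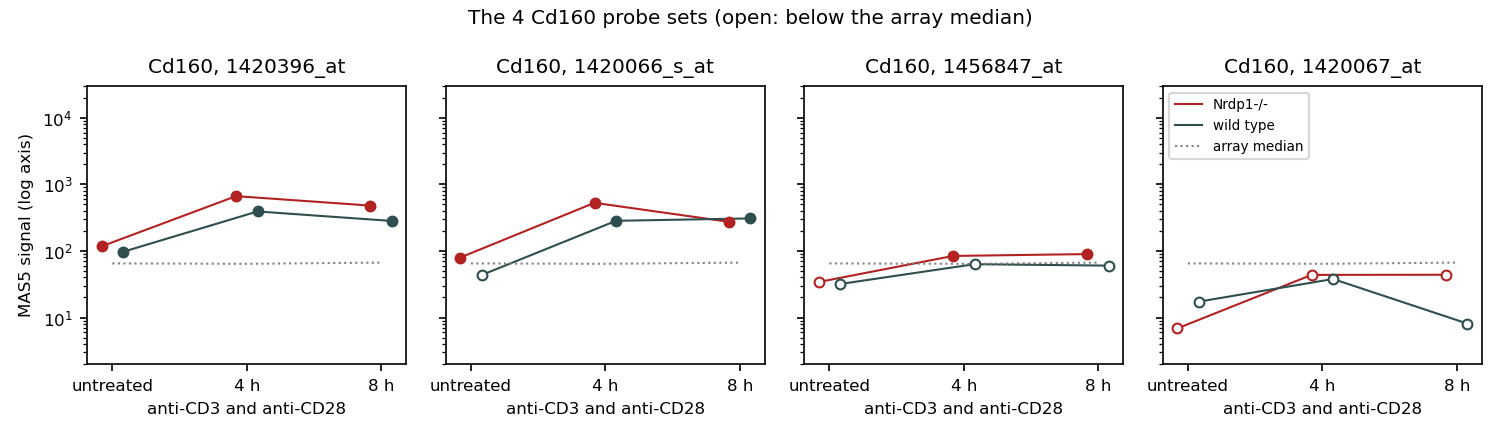
MAS5 signal (log axis) of the 4 Cd160 probe sets on the Nrdp1-/- (red) and wild-type (dark) arrays against stimulation time. Points are single arrays, open points lie below the array median, and the dotted line is that median averaged over the genotypes; the 2 brighter probe sets rise in both genotypes.

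Cd5, the receptor that tunes T cell receptor signalling, rose briefly. Its signal was 4540 untreated, 6548 at 4 h and 4236 at 8 h in Nrdp1-/- cells, against 3623, 5897 and 4057 in wild-type cells. In both genotypes the 4 h array was the brightest and the 8 h array was near the untreated one. The rise was 0.61 ± 0.10 at 4 h (adjusted p = 0.00279), and at 8 h the difference from untreated cells was 0.03 ± 0.10 (adjusted p = 0.869). The 8 h cells differed from the 4 h cells by -0.58 ± 0.10, which ranked 18 by p among the genes tested but did not pass the threshold (adjusted p = 0.0841). It passed in 5 of 15 alternatives. Cd6, a related receptor whose gene lies on the same chromosome (Cd6 at chr19:10789339-10830062, Cd5 at chr19:10718107-10739026, GRCm38.p6), rose by 0.57 ± 0.10 at 4 h (adjusted p = 0.00422) and differed from untreated by 0.15 ± 0.10 at 8 h (adjusted p = 0.363).

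Ctla4 signal stayed within a narrow range. It was 691 untreated, 749 at 4 h and 881 at 8 h in Nrdp1-/- cells, against 772, 847 and 832 in wild-type cells. The brightest Nrdp1-/- array was that of 8 h, and the wild-type arrays lay inside the Nrdp1-/- range. The difference from untreated cells was 0.12 ± 0.13 at 4 h (adjusted p = 0.6) and 0.23 ± 0.13 at 8 h (adjusted p = 0.263), and it passed the threshold in 0 of 15 alternatives at either time.

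Lag3 and Havcr2 were dim. Lag3, the MHC class II receptor, had signals of 3.83 untreated, 56.6 at 4 h and 177 at 8 h in Nrdp1-/- cells, against 21.3, 46.2 and 34.1 in wild-type cells. The Nrdp1-/- array at 8 h alone was above its array median, at least 2.6-fold over the median of the wild-type array at 8 h. Without the brightness filter its difference from untreated was 1.93 ± 0.84 at 4 h (adjusted p = 0.246) and 2.52 ± 0.84 at 8 h (adjusted p = 0.0926). Havcr2 had signals of 11.2, 114 and 123 in Nrdp1-/- cells, against 14.7, 54.1 and 19.6 in wild-type cells. It was above the array median on the stimulated Nrdp1-/- arrays and below it on the other 4, so it was tested because it was bright there. The differences of 2.27 ± 0.82 at 4 h (adjusted p = 0.0938) and 1.68 ± 0.82 at 8 h (adjusted p = 0.182) did not pass the threshold, though both passed without the untreated or the 8 h wild-type array (lowest adjusted p = 0.0129 at 4 h and 0.0421 at 8 h). At 8 h the Nrdp1-/- array was at least 1.82-fold over the wild-type array's median, and at 4 h at least 1.67-fold.

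**Figure D2:**
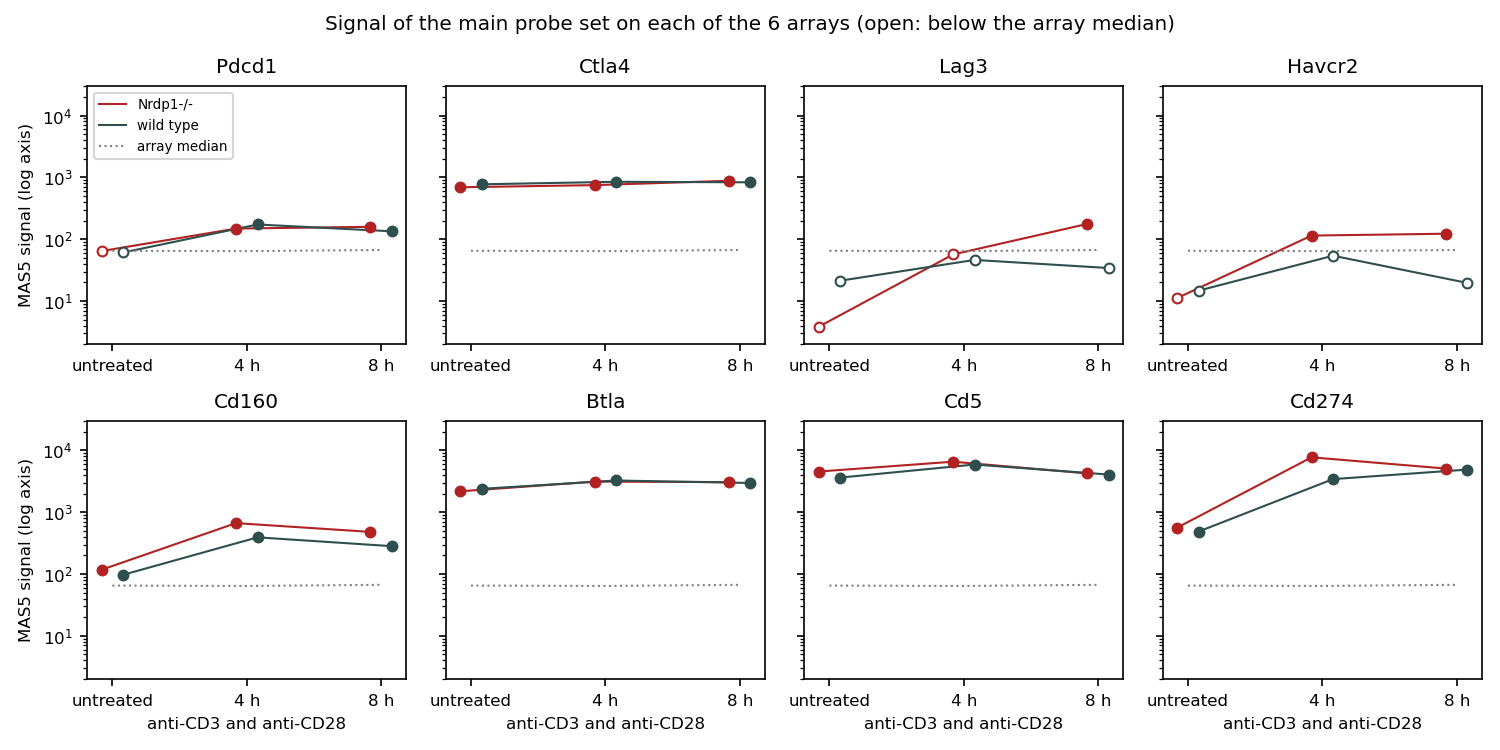
MAS5 signal (log axis) of the main probe set of the 8 listed genes on the Nrdp1-/- (red) and wild-type (dark) arrays, untreated and after 4 h and 8 h. Points are single arrays, open points lie below the array median (dotted, averaged over the genotypes); Cd274 and Cd160 rise most among genes above that median on all 6 arrays, and Lag3 and Havcr2 are above it on Nrdp1-/- arrays only.

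Across the set, 5 of the 7 tested members rose at 4 h and 0 fell, against 8.01% of all tested genes that rose and 5.51% that fell. The risen ones were Cd274, Cd160, Pdcd1, Cd5 and Btla. At 8 h 4 of 7 rose, the same ones without Cd5, and 0 fell, against 9.88% and 9.26% of all tested genes. The times share the untreated arrays. Members were chosen with earlier results of these data known, so setting their counts beside these shares describes them and is not a test. Pdcd1 was also tested only because its stimulated arrays were bright. Without the intensity trend in the variance 1 member (Cd160) was called at 4 h and 2 (Cd274 and Cd160) at 8 h, and without the untreated Nrdp1-/- array 3 (Cd274, Cd160 and Cd5) and 2 (Cd274 and Cd160). Without the 8 h Nrdp1-/- array, 2 (Cd274 and Cd160) were called at 8 h. Between 4 h and 8 h 0 of 7 changed, where 0.0185% of genes were higher and 0.0277% lower at 8 h. At an unadjusted p under 0.05 (limma) stood 2 of the 7, Cd5 and Cd160, and 907 of the 10838 genes.

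**Figure D3:**
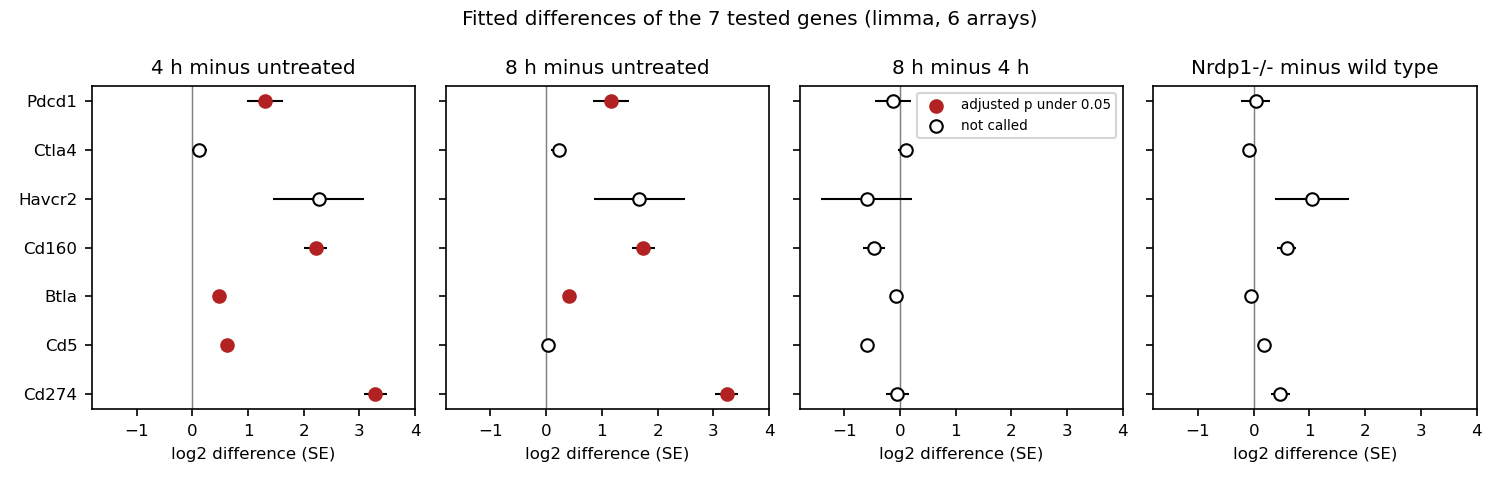
Fitted log2 differences (points) with their moderated SE (bars, limma fit of 6 arrays) of the 7 tested genes. Panels show 4 h minus untreated, 8 h minus untreated, 8 h minus 4 h and Nrdp1-/- minus wild type. Filled points have an adjusted p under 0.05 (limma): 5 at 4 h, 4 at 8 h and 0 in the other comparisons.

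Between the genotypes 0 of the 7 tested members were called, against 2.47% of all tested genes that were higher and 2.57% that were lower in Nrdp1-/- cells. At an unadjusted p under 0.05 (limma) stood Cd160 (0.59 ± 0.17, adjusted p = 0.0764) and Cd274 (0.48 ± 0.17, adjusted p = 0.168). Both had higher signals in Nrdp1-/- cells at all 3 times, Cd160 on its main probe set. Among all 10838 tested genes 1791 stood under that p. Restricted to the 4 stimulated arrays, these 2 genes were called higher. Leaving out either untreated array also gave calls for both, leaving out either 8 h array gave a call for Cd274, and leaving out either 4 h array gave 0 calls, with Cd274 at 0.13. Cd5 was also higher at all 3 times, by 0.33 untreated, 0.15 at 4 h and 0.06 at 8 h (mean 0.18 ± 0.08, adjusted p = 0.327). Havcr2 (1.04 ± 0.67, adjusted p = 0.498, and tested only because the stimulated Nrdp1-/- arrays were bright), Pdcd1 (0.03 ± 0.26, adjusted p = 0.981), Btla (-0.05 ± 0.08, adjusted p = 0.86) and Ctla4 (-0.08 ± 0.11, adjusted p = 0.784) did not pass. These misses do not show equal levels.

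An interaction term asked whether stimulation altered the gap between the genotypes. None of the 7 tested members passed (0 by limma, 0 without the trend, 0 at an unadjusted p under 0.05), where 0.0923% of genes had a positive and 0.129% a negative term. The terms for Cd274 (0.40 ± 0.24) and the main Cd160 probe set (0.50 ± 0.40) were positive. That of the second brightest Cd160 probe set, fitted on its own, was negative (-0.45 ± 0.48). This model has 1 residual degree of freedom and cannot separate 4 h from 8 h.

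**Figure D4:**
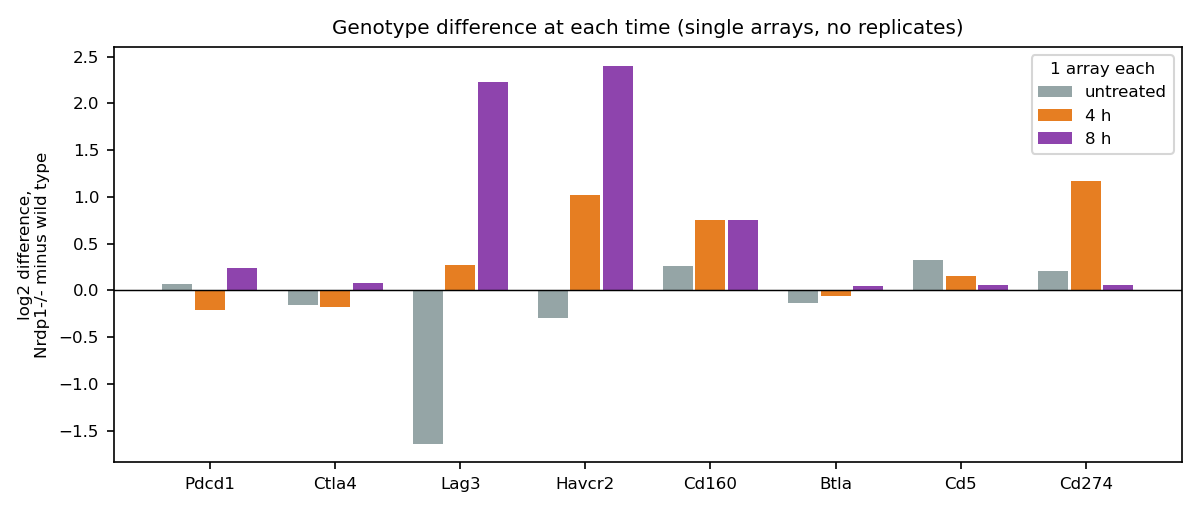
Log2 difference of signal, Nrdp1-/- minus wild type, for the 8 listed genes in untreated cells and at 4 h and 8 h, each bar from 1 array of either genotype. Cd274 differs most at 4 h (1.17) and the main Cd160 probe set by 0.76 at both stimulated times. For Lag3 and Havcr2 the wild-type array was below the median at each time, and in untreated cells both arrays were.

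Markers of other cells differed between the genotypes beside these values. Over all tested genes 2.47% were higher and 2.57% lower in Nrdp1-/- cells. Of 9 tested B cell markers 8 were lower and 1 (Ighm) higher in Nrdp1-/- cells, with a median difference of -1.93 against -0.01 over all tested genes. B cells also carry BTLA. The summed B cell signal was 24977 to 34600 on Nrdp1-/- arrays and 32020 to 35717 on wild-type arrays. Ighm made up most of that sum on every array, at 22231 to 31757 and 18512 to 20352. The sum therefore hides the lower signals of the other markers. Of 11 listed markers 8 were above the array median on all 6 arrays and 1 (Fcer2a) below it on all 6. Ms4a1, which encodes CD20, differed by -3.16 ± 0.13. Of 12 tested myeloid markers 6 were higher, and the sum was 3194 to 13064 against 2067 to 2174. That sum was 13064 untreated, 8395 at 4 h and 3194 at 8 h in Nrdp1-/- cells, and 5 of 13 listed markers were above the median on all 6 arrays and 1 (Itgam) below it on all 6. Of 6 tested NK cell markers 3 were higher. Their sum was 4060 untreated, 4450 at 4 h and 5260 at 8 h in Nrdp1-/- cells, against 1961 to 2805 in wild-type cells. Eomes, also among the memory-like CD8 markers, gave 1478, 2590 and 3763 of the Nrdp1-/- sums. Tyrobp (808, 505 and 259), Fcer1g and Gzma were lower at each later time there. Klre1 and Klra8 kept no single order over time, and Ncr1 was dim. Of 7 listed NK markers 5 were above the median on all 6 arrays and 1 (Ncr1) below it on all 6. Of 10 memory-like CD8 markers 8 were higher, with sums of 38791 to 40819 against 26036 to 28440. The part of these cells in the members' differences was not tested.

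Among the ligands and partners of the receptors, the HVEM gene differed most between the genotypes. Tnfrsf14, which encodes HVEM, had signals of 516, 757 and 517 in Nrdp1-/- cells, against 43.4, 50.4 and 113 in wild-type cells (untreated, 4 h, 8 h). The genotypes did not overlap, and the untreated and 4 h wild-type arrays were below the array median. The difference was 3.13 ± 0.28 (adjusted p = 5.21e-05), and the adjusted p was 0.0674 without the intensity trend. Its brightness on the Nrdp1-/- arrays carried it past the filter, and without that filter the adjusted p was 9.54e-05 (limma). HVEM is known on T, B and myeloid cells. In Nrdp1-/- cells 8 of 9 tested B cell markers were lower, while 6 of 12 myeloid and 8 of 10 memory-like CD8 markers were higher. Of 7 tested T cell markers 0 were called. The part of any of these cells in the Tnfrsf14 difference was not tested.

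The TNF family ligand LIGHT, which binds HVEM too and is encoded by Tnfsf14, rose on stimulation. Its signals were 40.6, 1240 and 645 in Nrdp1-/- cells and 7.94, 840 and 384 in wild-type cells. Against the array median of the dim untreated arrays this was at least 14.8-fold at 4 h and at least 7.23-fold at 8 h. Tnfsf14 was also higher in Nrdp1-/- cells (1.05 ± 0.24, adjusted p = 0.0285), though not without the untreated Nrdp1-/- array (0.65, adjusted p = 0.0535), without the brightness filter (adjusted p = 0.0568), as the mean of its probe sets (0.81, adjusted p = 0.198) or without the trend (adjusted p = 0.254).

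PD-L2, the second PD-1 ligand, rose too. Pdcd1lg2 had signals of 66.9, 251 and 268 in Nrdp1-/- cells, against 68.0, 151 and 176 in wild-type cells. It rose by 1.47 ± 0.30 at 4 h (adjusted p = 0.00758) and 1.63 ± 0.30 at 8 h (adjusted p = 0.00363), and differed between genotypes by 0.43 ± 0.24 (adjusted p = 0.427). The 4 h call was lost without the untreated (adjusted p = 0.0653) or the 4 h (adjusted p = 0.0626) Nrdp1-/- array, and without the trend both calls were lost (adjusted p = 0.0835 at 4 h and 0.065 at 8 h). Of the CTLA-4 ligands, Cd86 differed by 0.66 ± 0.21 at 8 h without passing (adjusted p = 0.0504), and Cd80 was below the array median on all 6 arrays. Lgals9, the galectin-9 gene, differed by 0.01 ± 0.15 at 4 h and by 0.27 ± 0.12 between genotypes (adjusted p = 0.301), and Pvr, the gene of CD155, by -0.16 ± 0.15 at 4 h. In all, 2 of 11 tested ligands and partners rose at 4 h and 0 fell, with a median of -0.01 against -0.05 over all tested genes. At 8 h 2 rose and Lgals3 fell (-0.66 ± 0.20), and between genotypes 3 were higher in Nrdp1-/- cells, the third being Lgals3 (1.80 ± 0.16). Over all tested genes 8.01% rose and 5.51% fell at 4 h, and 9.88% and 9.26% at 8 h. Between genotypes 2.47% of them were higher in Nrdp1-/- cells.

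**Figure D5:**
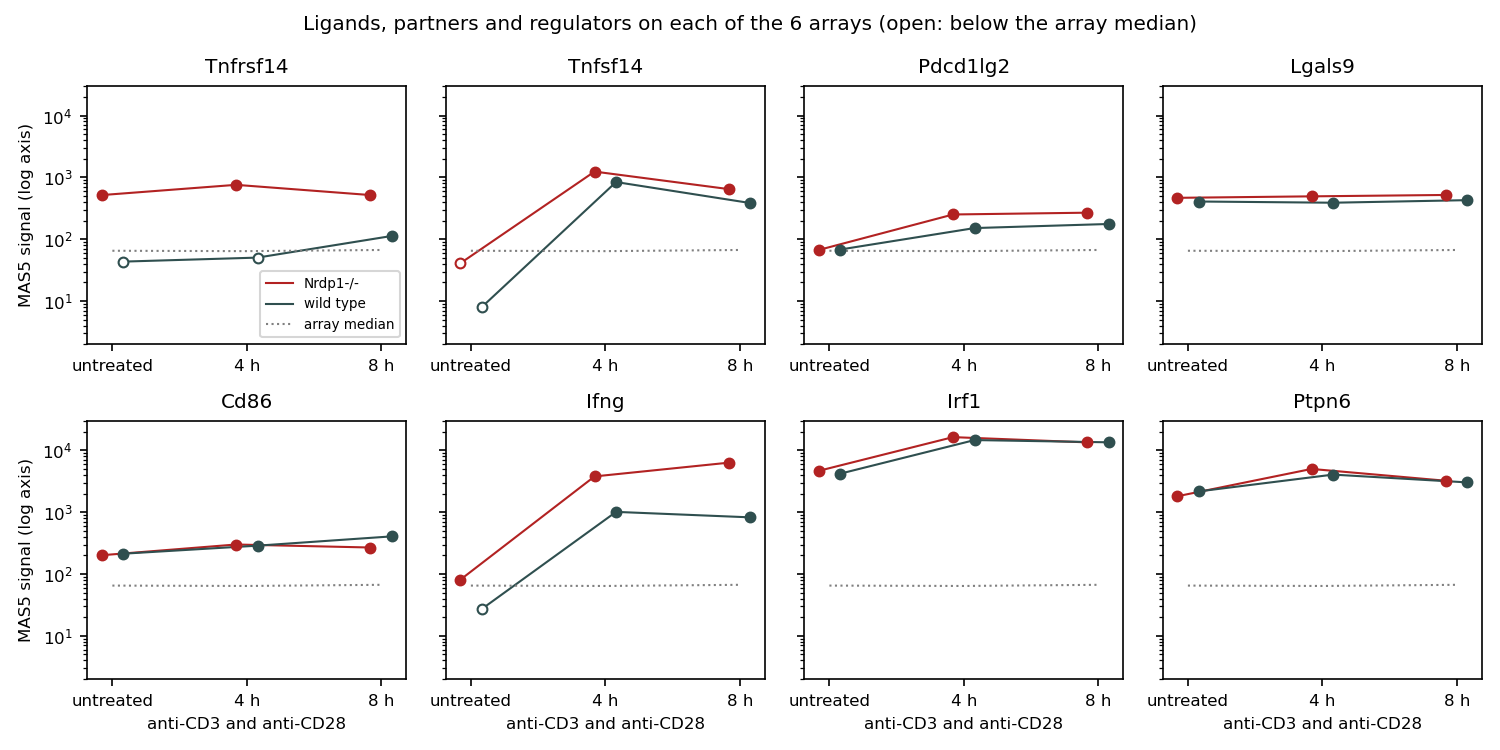
MAS5 signal (log axis) of 5 ligand genes, 2 regulators of PD-L1 (Ifng and Irf1) and the SHP-1 gene Ptpn6 on the Nrdp1-/- (red) and wild-type (dark) arrays against stimulation time. Points are single arrays and open points lie below the array median (dotted); Tnfrsf14 and Ifng are higher on the Nrdp1-/- array at each of the 3 times, and Pdcd1lg2 and Irf1 rise in both.

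Costimulatory and other inhibitory receptors were counted beside the members. Of 11 tested costimulatory counterparts 5 rose and 0 fell at 4 h (median 0.04), and 5 rose and Cd28 fell at 8 h (-0.33 ± 0.10, adjusted p = 0.0423). The largest rises at 4 h were those of Tnfrsf9 (4-1BB, 2.91 ± 0.18), Slamf1 (2.01 ± 0.13), Crtam (1.10 ± 0.15) and Tnfrsf18 (GITR, 0.88 ± 0.10). Icos rose by 0.45 ± 0.10, and Cd226, the TIGIT competitor, differed by -0.87 ± 0.43 (adjusted p = 0.216). Crtam and Tnfrsf9 were higher in Nrdp1-/- cells. Of 11 other inhibitory receptors Cd6 alone rose at 4 h (median 0.01), and at 8 h Nt5e (-0.59 ± 0.13), which encodes CD73, and Vsir (-0.42 ± 0.10), which encodes VISTA, fell. Between genotypes Klrg1 (1.89 ± 0.22) and Klrc1 (0.48 ± 0.11) were higher and Nt5e (-0.51 ± 0.11) lower in Nrdp1-/- cells. Over all tested genes 8.01% rose and 5.51% fell at 4 h, and 9.88% and 9.26% at 8 h. Between genotypes 2.47% of them were higher and 2.57% lower in Nrdp1-/- cells. The difference between the lists was not tested.

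Signalling partners came next. Ptpn6, which encodes SHP-1, rose by 1.18 ± 0.13 at 4 h (adjusted p = 0.000164) and 0.66 ± 0.13 at 8 h, while Ptpn11, which encodes SHP-2, differed by 0.12 ± 0.10 (adjusted p = 0.5) and 0.01 ± 0.10. Ptpn6 signal was 1807, 5002 and 3220 in Nrdp1-/- cells and 2168, 4051 and 3030 in wild-type cells, highest at 4 h in both. Of 17 downstream phosphatases and adaptors Ptpn6 alone rose at 4 h, and Inpp5d (SHIP-1, -0.50 ± 0.14) and Pag1 (-0.46 ± 0.10) fell, with a median of -0.10 in the list. The adaptor gene Dok2 was higher in Nrdp1-/- cells (0.93 ± 0.10). Over all tested genes 8.01% rose and 5.51% fell at 4 h, and 2.47% were higher in Nrdp1-/- cells.

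Known regulators of PD-1 and PD-L1 expression included several large rises. Of 29 tested, 14 rose and 2 (Nfatc2 and Nfatc3, named after their values were seen) fell at 4 h, with a list median of 0.41 against -0.05 over all tested genes. At 8 h 13 rose and 4 fell, and 8 were higher and 0 lower in Nrdp1-/- cells. Over all tested genes 8.01% rose and 5.51% fell at 4 h, and 9.88% and 9.26% at 8 h. Between genotypes 2.47% were higher and 2.57% lower in Nrdp1-/- cells. Ifng, the cytokine that induces PD-L1, had signals of 80.4, 3786 and 6323 in Nrdp1-/- cells, against 27.1, 1011 and 825 in wild-type cells. The part of interferon gamma in the Cd274 values was not tested. Irf1, an interferon-induced activator, rose by 1.81 ± 0.10 at 4 h, with signals of 16358 at 4 h in Nrdp1-/- cells and 14659 in wild-type cells. At 4 h Ifng rose by 5.25 ± 0.27, and the activation-induced nuclear receptor genes Nr4a3, Nr4a1 and Nr4a2 by 4.37 ± 0.15, 4.03 ± 0.15 and 3.79 ± 0.22. Between genotypes Ifng (2.09 ± 0.22), Fos (1.30 ± 0.14) and Tbx21 (1.09 ± 0.17), which encode interferon gamma, an AP-1 subunit and T-bet, differed most. Nr4a3 was higher in Nrdp1-/- cells by 0.96 ± 0.13 on its brightest probe set, while the mean of its probe sets differed by -0.05. Tox, a factor of T cell exhaustion, differed by 0.11 ± 0.26 at 4 h (adjusted p = 0.842) and by -0.10 ± 0.21 between genotypes (adjusted p = 0.891).

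Genes whose signals followed a member most closely over the 6 arrays were ranked by Pearson correlation of log2 values, among tested genes with a standard deviation of at least 50% of the member's. These correlations describe 6 arrays that share the same 3 conditions. Cd274 was followed by Gbp6 (r = 0.998), Iigp1 (r = 0.995) and Gbp7 (r = 0.995) among 589 candidates. Gbp6 signal was 13700 at 4 h and 10260 at 8 h in Nrdp1-/- cells and 7551 and 10840 in wild-type cells. As for Cd274, the brighter array was that of 4 h in Nrdp1-/- cells and that of 8 h in wild-type cells. Cd160 was followed by Egr3 (r = 0.996), Egr1 (r = 0.994) and Gadd45b (r = 0.993) among 1368 candidates. Pdcd1 was followed by Tada2a, Gfod1 and Ipo4 (r = 0.999, 0.998 and 0.997), Btla by Elmo1 (r = 0.996), Sf3b3 and Snhg1 (r = 0.994 each), and Cd5 by Nucb1, Ppp1r10 and Cd6 (r = 0.974, 0.973 and 0.972). Ctla4 was followed by Dleu7, Pus10 and Coq3 and Havcr2 by Acod1, C130036L24Rik and Il18bp, with r of 0.937 to 0.995.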

How the data were processed

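RNA of 6 samples was measured, 1 array per genotype and time, grouped by sample title. The values are MAS5 intensities on a linear scale, deposited by the authors. The submitters' processing notes name MAS5 and give no version. By its values each array was scaled to a trimmed mean of 500. Median signal was 61.5 to 68.6 per array. Precision is limited by the 6 arrays. A single scaling factor per array hides changes shared by most transcripts.

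The 64 control probe sets were left out. Of the rest, 34945 had 1 symbol in the platform annotation, 932 several and 9160 none listed. The brightest probe set stood for each gene. Values were taken as log2(signal + 4.45), 4.45 being the 10th percentile of all values, which understates changes of dim genes. Tests were run in limma 3.58.1 under R 4.3.3 (lmFit and eBayes with an intensity trend, Benjamini-Hochberg over 10838 genes), with additive time and genotype, 2 residual and 8.99 prior degrees of freedom. The interaction model had 1 residual degree of freedom and an infinite prior. A dim condition is one below the array median on each of its arrays. On simulated arrays for the 4 h comparison over 10838 genes, 78 of 100 genes changed by 1 on the log2 scale and 88 of 100 changed by 2 were recovered, with 11 false calls. The simulated noise was independent and drawn from the fit's own variances, without a genotype effect. These figures therefore do not cover time courses that differ between the genotypes.

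Members and gene lists were chosen with earlier results of these data known. Named were all members, up to 4 called genes per list with the largest change, a fixed set of partner genes, and the 3 genes closest in pattern to each member. Alternatives were quantile normalization, median centring, pseudocounts of 1 and 24.3, no filter, a filter at percentile 70, averaged probe sets, single probe sets, no trend in eBayes, the 4 stimulated arrays only, and omission of single arrays. Sequences came from RefSeq promoter tables of GRCm38.p6, matched by symbol for 8 of 9 members.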

Additional observations from a re-analysis of the deposited data

Results flagged for a closer look

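Members whose differences between times had opposite signs in the genotypes are listed here. Each rests on 1 array per genotype and time, and the differences between genotypes were not tested. The log2 difference, 8 h array minus 4 h array, in Nrdp1-/- and then wild-type cells was -0.60 and 0.51 for Cd274, 0.0927 and -0.36 for Pdcd1, and 0.23 and -0.0265 for Ctla4. For Lag3 it was 1.57 and -0.39, and for Havcr2 0.10 and -1.28, where both wild-type arrays were below the array median. For Cd5 the 8 h array minus the untreated array was -0.10 in Nrdp1-/- cells and 0.16 in wild-type cells.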

How the results depend on the processing

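Of 5 members called at 4 h and 4 at 8 h, 1 and 2 were called without the intensity trend, and 3 to 6 and 2 to 5 when single arrays were left out. The members called between 4 h and 8 h, 0 in the report, were 1 (Cd5, lower) after median centring and 0 to 1 without single arrays. Between genotypes, 0 became 2 in the stimulated arrays alone and 0 to 2 without single arrays. Other planned settings kept these counts within 1.5 times. The interaction gave 0 throughout, and leaving out a stimulated array left that model no residual degrees of freedom, so it could not be tested.

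Of differences below the threshold, these changed sign: Cd5 at 8 h after median centring (-0.0076) and without single arrays (-0.0777 to 0.14), and, without single arrays, the 8 h minus 4 h differences of Cd274 (-0.57 to 0.47), Ctla4 (-0.0215 to 0.23), Pdcd1 (-0.32 to 0.0517) and Havcr2 (-1.61 to 0.43) and the genotype difference of Pdcd1 (-0.0711 to 0.15). The genotype difference of Nr4a3, 0.96 in its brightest probe set, was -0.0517 as the mean of its probe sets.

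Over all genes, those called without the trend were 83 higher and 4 lower at 4 h (868 and 597 with it), 103 and 5 at 8 h (1071 and 1004), and 42 and 57 between genotypes (268 and 279). Median centring gave 386 lower genes at 4 h, and the mean of probe sets 346 lower at 4 h, 515 at 8 h and 182 between genotypes. Testing each probe set gave 441 higher between genotypes. Without the untreated Nrdp1-/- array 574 were higher and 217 lower at 4 h, and 700 and 349 at 8 h. Omitting single arrays gave 217 to 941 lower genes at 4 h and 349 to 1537 at 8 h. Between 4 h and 8 h, with 2 higher and 3 lower in the report, median centring gave 7 and 33, no trend 0 and 0, and omitting single arrays 18 to 46 and 14 to 79. The interaction, with 10 and 14, gave 4 and 4 after quantile normalization, 5 and 8 after median centring, and 0 and 0 without the trend or as the mean of probe sets. No paired analysis was possible because the labels give no replicate numbers. For Lag3 and Havcr2, signal below the array median limits what can be measured.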
